A study of Homo sapiens with 6 samples.

Results

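The 46 genes described here encode the nuclear pore complex and the soluble receptors that carry cargo through it. The members are every protein-coding gene whose symbol starts with NUP, KPNA, KPNB, IPO, XPO or TNPO followed by a digit, 46 of the 61852 genes in the count table. Of these, 23 are nucleoporins (NUP) and 23 are transport receptors, made up of 7 importin alpha genes, 11 import receptors of the importin beta family and 5 exportins. A further 28 symbols matched the same letters but were pseudogenes, antisense genes or other non-coding genes, and were left out.

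The libraries came from MEG-01, an established human megakaryoblastic leukaemia line. The control cells carried the pLKO.1 lentiviral vector (n = 3) and the knockdown cells carried 1 short hairpin RNA against the kinase MELK, named sh2-MELK (n = 3). No other treatment, allele or time point is given, all 6 libraries have the batch label F5, and the series places the comparison in megakaryocyte formation. A single hairpin in a single line limits what the knockdown group stands for.

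Nuclear pores are rings of nucleoporins set in the nuclear envelope. Large scaffold subcomplexes, the Y complex and the inner ring, hold a central channel filled with disordered FG-repeat nucleoporins, and filaments and a basket extend to the cytoplasm and the nucleus. Proteins with a classical nuclear localization signal bind an importin alpha, which binds importin beta (KPNB1). Other receptors of the importin beta family bind their cargo directly, and exportins carry cargo out. The small GTPase RAN, bound to GTP in the nucleus, releases import cargo and holds export cargo. The pore scaffold is long-lived in non-dividing cells, and dividing cells build new pores as the nucleus grows and take them apart in mitosis.

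Library totals ran from 18945176 to 21711313 counts. In 57.9% of genes all 6 values were 0, 1, 2, 10 or 100, so the table behaves as if one of those numbers had been added to each read count. The SD of those 5 numbers is 38.9, which touches members with few reads, and the 25 members that average 500 counts or more, called well measured here, are therefore also given apart. MELK itself had 219, 206 and 238 counts under control conditions against 16, 124 and 26 with the hairpin, with a log2 fold change of -1.98 ± 0.69 (SE) and an edgeR adjusted p of 0.104. The 3 knockdown libraries were each below the 3 control libraries, and the highest, replicate 2, was at 124. MELK averaged only 138.2 counts, so an added 100 would weigh heavily on any of these values and on the SE. The added number was not modelled for MELK, and its part in the value of replicate 2 was not tested. Summed megakaryocyte markers lay at 2618 to 2748 CPM (counts scaled to a library of 1e6) in the control and 1514 to 1578 CPM in the knockdown, with 5 of the 12 markers well measured. ITGA2B supplied most of that sum (2024 CPM in the control, 1061 in the knockdown), 4 of the 5 well-measured markers fell, and FLI1 rose by 0.68 on the log2 scale. PF4, PPBP and GP1BB held only the values 0, 1, 2, 10, 11 and 100. Summed erythroid markers (5 of 9 well measured) lay at 470.5 to 506.5 CPM against 248.5 to 257.0 CPM, while the myeloid list ranged from 31.4 to 44.0 CPM in the control and from 34.2 to 42.5 CPM in the knockdown, the lymphoid list from 2.84 to 13.7 and 8.37 to 17.8 CPM, and the stromal and endothelial list from 28.0 to 41.6 and 24.7 to 34.0 CPM. These 2 shifted marker lists move with the groups, and their part in the results below was not tested. In bulk RNA, fewer cells of a type and less RNA per cell cannot be told apart.

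KPNA2 carries the largest change among the members, and the RefSeq promoter of this gene is shown because the results turn on this gene more than on any other. The window runs from 250 bases before to 50 bases after the RefSeq start, at GRCh38.p14 chr17:68035485-68035784 on the plus strand. Capitals mark 2 kinds of motif found by a search of both strands, CCAAT (the box bound by NF-Y) and TTTGAA (the letters of the cell cycle homology region of many mitotic genes).
KPNA2: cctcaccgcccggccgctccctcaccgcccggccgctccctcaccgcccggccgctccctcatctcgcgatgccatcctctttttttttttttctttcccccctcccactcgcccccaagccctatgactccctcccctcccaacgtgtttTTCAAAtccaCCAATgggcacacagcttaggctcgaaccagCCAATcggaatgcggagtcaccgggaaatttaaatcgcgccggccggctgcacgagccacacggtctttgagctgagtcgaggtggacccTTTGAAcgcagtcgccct
The CCAAT letters begin at positions -89 and -58 from the start. TTTGAA lies on the other strand at -99, where it reads TTCAAA, and as written at +33. Neither motif is rare: CCAAT is in 34.6% and TTTGAA in 15.2% of the 35116 windows of this length. Of the 40 members with a window, CCAAT was in 12 of 22 nucleoporins and 9 of 18 receptors, and TTTGAA in 7 and 3. A gene was counted if any of its windows held the letters. Counted so, CCAAT is in 39.7% and TTTGAA in 18.2% of all 27305 genes with a window. A match is a description of letters, not of binding.

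The importin alphas formed the group with the most members higher in the knockdown: 5 of the 6 tested rose, none fell, and the median log2 fold change was 0.62. Over all 28303 genes tested, 8.12% were called higher and 8.43% lower, with a median of 0.02. Calls are more frequent among well-measured genes, of which 32.5% were called higher and 35.5% lower. All 4 well-measured importin alphas rose. KPNA2 (ENSG00000182481, GRCh38 chromosome 17, 68035519 to 68046842 in GENCODE release 29, as for the members below; importin alpha 1, an adaptor abundant in proliferating cells) had 2726, 3024 and 3210 counts in the 3 control libraries against 7154, 8008 and 7802 in the 3 of the knockdown. The groups lie far apart, with the lowest knockdown library above the highest control library. Its level went from 149 to 391.5 CPM, a log2 fold change of 1.39 ± 0.07 (SE) or 2.63-fold, with an edgeR adjusted p of 4.57e-06.

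KPNA4 (ENSG00000186432, chromosome 3, 160494995 to 160565588; importin alpha 3) was the second. Its counts were 315, 294 and 418 against 768, 779 and 685, which do not overlap, and the change was 1.16 ± 0.12 (SE), or 2.23-fold (edgeR adjusted p 0.000214). KPNA1 (ENSG00000114030, chromosome 3, 122421949 to 122514945; importin alpha 5) had 711, 638 and 687 counts against 1100, 1164 and 1124. The 3 libraries of each group were close together, and the change was 0.77 ± 0.05 (SE; edgeR adjusted p 1.56e-05). KPNA1 shares 16.3% of its exon bases with an antisense gene, and whether the counting used strand is not known.

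KPNA6 (importin alpha 7) and KPNA3 (importin alpha 4) passed the threshold by little. KPNA6 had 2176, 2236 and 2431 counts against 2896, 2656 and 2395, with a change of 0.25 ± 0.06 (SE; edgeR adjusted p 0.0307). The call held without knockdown replicate 3 (adjusted p 0.0393) and was lost when any 1 of the other 5 libraries was left out, with adjusted p up to 0.15. KPNA3, a low member at 216, 196 and 232 counts against 307, 305 and 258, changed by 0.47 ± 0.13 (SE; edgeR adjusted p 0.0458), and its call was lost whichever library was left out (adjusted p 0.0629 to 0.133). KPNA6 also lost its call with the replicate block (adjusted p 0.0906), as did KPNA3 (adjusted p 0.115). KPNA5 had 22 to 122 counts with overlapping groups. KPNA7, an oocyte and embryo form, held 0, 1, 2, 10 or 100 in every library and was not tested.

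Per length, KPNA2 held most of the importin alpha transcripts in every library, and its share was higher in the knockdown. Among KPNA1, KPNA2, KPNA3, KPNA4 and KPNA6, CPM per kilobase of exon gave KPNA2 a share of 65.5%, 68.2% and 67.0% in the control against 77.3%, 79.8% and 81.0%. KPNA6 went the other way as a share, from 22.0%, 21.2% and 21.3% to 13.2%, 11.1% and 10.4%, although its own level was not lower. The summed level of the 5 genes was 64.9, 73.3 and 74.4 CPM per kilobase against 149.5, 158.7 and 162.6. These sums were chosen for description after the values were seen. KPNA2 reads could in principle be split with its 3 annotated pseudogenes, which held 0, 1, 2, 10 or 100 in every library.

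**Figure D1:**
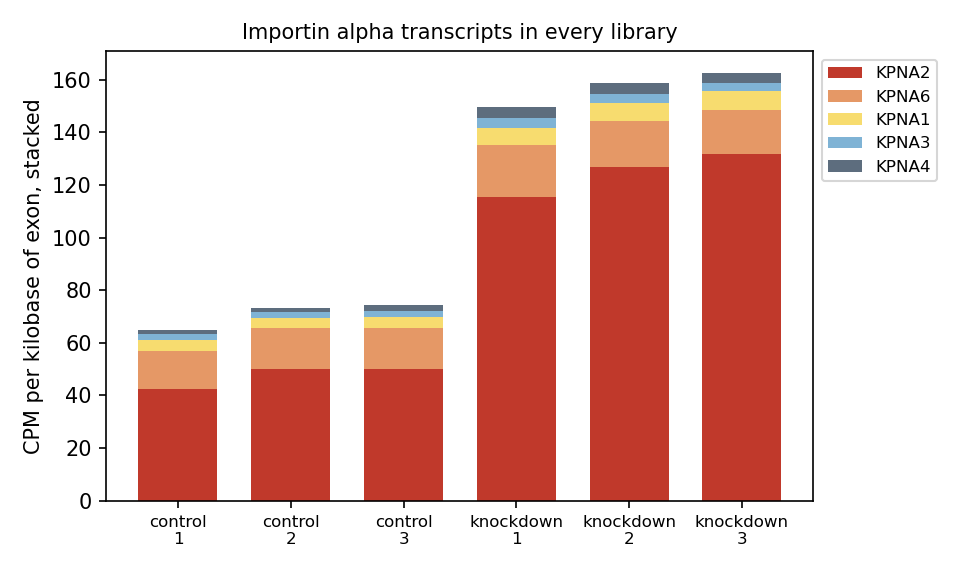
Stacked level of the 5 measured importin alpha genes in each of the 6 libraries, in CPM per kilobase of exon. The 3 control libraries reach 64.9 to 74.4 and the 3 knockdown libraries 149.5 to 162.6, and the KPNA2 segment is the tallest in all 6.

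Of the import receptors of the importin beta family, 4 of the 10 tested rose, 1 fell and 5 did not pass. Of the 6 well measured, 4 rose and none fell, beside 32.5% higher and 35.5% lower of all well-measured genes. TNPO2 (ENSG00000105576, chromosome 19, 12699194 to 12724011; transportin 2, a receptor for proteins with a PY-type localization signal) had 4954, 4514 and 5031 counts against 6858, 7075 and 6120. The groups do not overlap, and the change was 0.50 ± 0.04 (SE; edgeR adjusted p 4.06e-05). IPO13, which works in both directions, rose by 0.46 ± 0.04 (SE), TNPO3, which imports serine/arginine-rich splicing factors, by 0.39 ± 0.07 (SE), and IPO9, a receptor for histones and actin, by 0.36 ± 0.04 (SE). These 3 genes had edgeR adjusted p of 3.82e-05, 0.0069 and 0.000462, and all 4 risers kept their call when each library was left out in turn.

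IPO7 (ENSG00000205339, chromosome 11, 9384622 to 9448126), an import receptor for ribosomal proteins, was the 1 receptor that fell. Its counts were 664, 473 and 477 against 313, 321 and 289, so that every knockdown library was below every control library. The change was -0.77 ± 0.14 (SE), 1.70-fold lower (edgeR adjusted p 0.00509), and it ranged from -0.85 to -0.60 with each library left out. IPO7 had a mean under 500 counts; when each value was modelled as a read count plus an added number, the estimate was -0.69 with a 95% interval from -0.85 to -0.52. IPO8, the close relative of IPO7, had 134, 111 and 95 counts against 72, 68 and 54, with a log2 fold change of -0.78 ± 0.48 (SE) and an edgeR adjusted p of 0.387. The groups of IPO8 do not overlap, and the same model gave -0.80 with an interval from -1.11 to -0.50.

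KPNB1, the importin beta that all classical import uses, had 3094, 3096 and 3175 counts against 3009, 2911 and 2758. Scaled to library size and composition its groups overlap, and the log2 fold change was -0.08 ± 0.04 (SE; edgeR adjusted p 0.304). KPNB1 thus did not pass the test where its adaptor KPNA2 rose. IPO5, a receptor for ribosomal proteins and histones, was at 0.12 ± 0.05 (SE; adjusted p 0.222, and 0.046 without control replicate 2), and TNPO1 (transportin 1) at 0.15 ± 0.13 (SE; adjusted p 0.574). IPO11 had 178, 69 and 66 counts against 251, 174 and 131, a change of 0.87 ± 0.45 (SE) that did not pass (adjusted p 0.309), while the model of the added number gave 1.15 with an interval from 0.87 to 1.43; LRRC70 shares 17.0% of IPO11's exon bases on the same strand. IPO4 had at most 13 counts and was not tested, and 69.3% of its exon bases are shared on the same strand with a second protein-coding gene model; how reads over both were counted is not known.

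Of the 5 exportins, 2 rose and none fell; of the 4 well measured, 50.0% rose, beside 32.5% of all well-measured genes. XPO5, the exporter of pre-miRNA hairpins, had 2939, 3140 and 3326 counts against 3736, 4019 and 3634, with a change of 0.31 ± 0.05 (SE; edgeR adjusted p 0.00367). XPO7, known for its part in erythroid nuclear maturation, had 1909, 2125 and 2220 counts against 2389, 2508 and 2359 and changed by 0.25 ± 0.06 (SE; edgeR adjusted p 0.0279). The XPO7 groups do not overlap, but its call was kept only without control replicate 1 or control replicate 2 and was lost in the other 4 fits, with adjusted p from 0.0509 to 0.121. XPO1 (CRM1), the main exporter of proteins with a leucine-rich export signal, had 643, 536 and 480 counts against 677, 625 and 552, which overlap, and its log2 fold change was 0.19 ± 0.12 (SE; adjusted p 0.382). XPO6, the actin exporter, was at -0.08 ± 0.04 (SE; adjusted p 0.239) and XPO4 at 0.48 ± 0.38 (SE; adjusted p 0.525). XPO4 is low: its value was 0.10 without knockdown replicate 1 and 0.11 (-0.15 to 0.38) with the added number modelled.

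**Figure D2:**
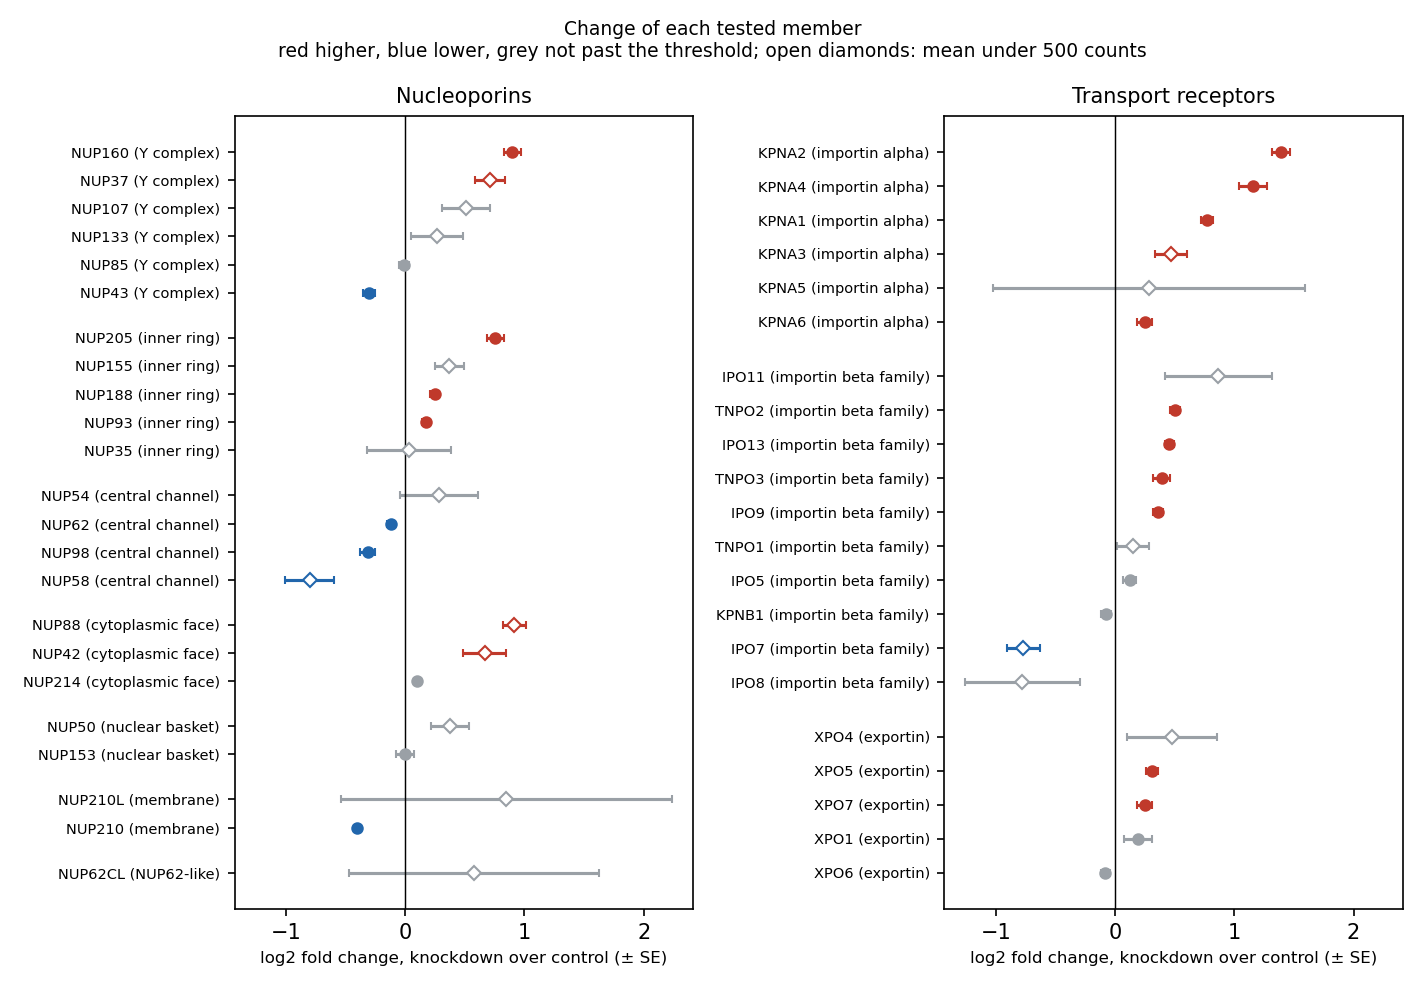
Log2 fold change of the knockdown over the control with its SE for the 44 members tested, nucleoporins on the left and transport receptors on the right, grouped by role; open diamonds have a mean under 500 counts. KPNA2 at 1.39 and KPNA4 at 1.16 lie farthest to the right among the called members, while the nucleoporins spread from -0.80 (NUP58) to 0.91 (NUP88) among those called.

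The nucleoporins moved in both directions: of 23 tested, 7 rose, 5 fell and 11 did not pass, and the median log2 fold change was 0.27. In the Y complex, the outer scaffold, 2 of 6 rose and 1 fell. Of its 3 well-measured members 1 rose and 1 fell, near the 32.5% and 35.5% of all well-measured genes. NUP160 (ENSG00000030066, chromosome 11, 47778087 to 47848555) had 872, 798 and 745 counts against 1419, 1602 and 1377. The groups are well apart, and the change was 0.90 ± 0.07 (SE; edgeR adjusted p 5.03e-05). NUP37 (ENSG00000075188, chromosome 12, 102073103 to 102120124), a WD-repeat subunit bound to NUP160, had 225, 260 and 266 counts against 380, 436 and 384, again without overlap, and changed by 0.71 ± 0.13 (SE; edgeR adjusted p 0.00446); this is a low member, for which the model of the added number gave 0.72 (0.52 to 0.90).

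NUP43, another WD-repeat subunit of the same complex, fell: its counts were 1358, 1409 and 1520 against 1138, 1165 and 1088, and the change was -0.30 ± 0.05 (SE; edgeR adjusted p 0.00413). The members of 1 stable complex thus had transcript changes of opposite sign. NUP85 had 1656, 1573 and 1602 counts against 1570, 1649 and 1473 with a log2 fold change of -0.01 ± 0.04 (SE; adjusted p 1). NUP107 (0.51 ± 0.20, SE) and NUP133 (0.27 ± 0.22, SE) were low and did not pass (adjusted p 0.157 and 0.549). With the added number modelled, the NUP107 interval ran from 0.30 to 0.74 and that of NUP133 from -0.16 to 0.25.

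In the inner ring, 3 of 5 rose and none fell. The 3 that rose are the 3 well measured, and 32.5% of all well-measured genes rose. NUP205 (ENSG00000155561, chromosome 7, 135557919 to 135648757), a large scaffold solenoid, had 761, 862 and 858 counts against 1435, 1364 and 1293, with no overlap, and changed by 0.76 ± 0.07 (SE; edgeR adjusted p 0.000131). Its structural relative NUP188 changed less, by 0.25 ± 0.04 (SE; adjusted p 0.00205), and NUP93, the linker that binds both, by 0.17 ± 0.03 (SE; adjusted p 0.0069). NUP155 had 406, 417 and 333 counts against 503, 483 and 476, a change of 0.37 ± 0.12 (SE) with an edgeR adjusted p of 0.0777; it passed without control replicate 2 (0.47, adjusted p 0.0479), with library size alone (adjusted p 0.0436) and in DESeq2 (adjusted p 0.0177). NUP35 had 95 to 169 counts in the control and 102 to 135 in the knockdown, and its log2 fold change was 0.03 ± 0.35 (SE; adjusted p 1). With the added number modelled, the NUP155 estimate was 0.63 (0.27 to 0.81) and that of NUP35 0.50 (0.23 to 0.78). The model takes 1 dispersion from well-measured genes and does not adjust over genes, so its intervals may be too narrow, and neither gene is counted as called.

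The central channel was the only role in which 3 members fell and none rose. Its 2 well-measured members both fell, beside 35.5% of all well-measured genes. NUP58 (ENSG00000139496, chromosome 13, 25301524 to 25349800) had 423, 531 and 400 counts against 208, 237 and 313. The highest knockdown library was below the lowest control library, and the change was -0.80 ± 0.20 (SE; edgeR adjusted p 0.0305). It is a low member whose call held without knockdown replicate 3 (adjusted p 0.0167) and was lost when any of the other 5 libraries was left out (adjusted p up to 0.148) and with the replicate block (adjusted p 0.0545); the model of the added number gave -0.91 (-1.09 to -0.72). NUP98, an FG nucleoporin that is also a fusion partner in leukaemia, had 2277, 2347 and 2441 counts against 2017, 1789 and 1739 and changed by -0.31 ± 0.06 (SE; edgeR adjusted p 0.00716). Its adjusted p was 0.0639, 0.0627 and 0.0503 without control replicate 2, control replicate 3 or knockdown replicate 3.

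NUP62 (ENSG00000213024, chromosome 19, 49906825 to 49929763), the partner of NUP58 and NUP54, had 6093, 5782 and 6439 counts against 5547, 5664 and 5199, a small change of -0.12 ± 0.03 (SE; edgeR adjusted p 0.03). That call was lost with every library left out in turn (adjusted p 0.0614 to 0.146), with library size alone as scaling (adjusted p 0.377) and with the replicate block (adjusted p 0.0966), and the direction turned once a trend with GC content and transcript length was removed, as described below. ATF5, on the opposite strand, shares 10.4% of the exon bases of NUP62, and AC011452.1 and IL4I1, on the same strand, share 6.38% and 5.58%. How reads over these bases were counted is not known. NUP54 had 92 to 122 counts in the control and 121 to 129 in the knockdown and did not pass (0.29 ± 0.33, SE; adjusted p 0.724).

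On the cytoplasmic face, where messenger RNA is released, 2 of 3 rose. Both were low members, and the 1 well-measured member did not pass. Of all well-measured genes 32.5% rose. NUP88 (ENSG00000108559, chromosome 17, 5360963 to 5420160) had 287, 300 and 338 counts against 561, 561 and 578. All 3 knockdown libraries were well above all 3 control libraries, and the change was 0.91 ± 0.10 (SE; edgeR adjusted p 0.000225), with 0.92 (0.72 to 1.09) in the model of the added number. RPAIN and RABEP1, on the opposite strand, share 9.82% and 8.84% of its exon bases. NUP42 (ENSG00000136243, chromosome 7, 23181827 to 23201011) had 307, 221 and 200 counts against 414, 343 and 370 and changed by 0.67 ± 0.18 (SE; edgeR adjusted p 0.0381). That call held without control replicate 1 (0.86, adjusted p 0.0153) and was lost in the other 5 fits (adjusted p 0.0731 to 0.16). The model of the added number gave 0.88 (0.51 to 1.07) for NUP42. An antisense gene shares 13.0% of NUP42's exon bases. NUP214, which anchors NUP88, was at 0.10 ± 0.03 (SE), just outside the threshold with an edgeR adjusted p of 0.0501. With library size alone it was 0.18 and passed (adjusted p 0.00214). It also passed in DESeq2 (adjusted p 0.0262), limma-voom (0.0137) and edgeR on well-measured genes alone (0.00526). In edgeR it did not pass with relative log expression scaling (adjusted p 0.1084), no filter (0.1753) or the replicate block (0.1455). Nor did it pass with each library left out in turn (adjusted p 0.062 to 0.1248).

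NUP210 (ENSG00000132182, chromosome 3, 13316235 to 13420309), a membrane-spanning nucleoporin, had the highest level of any member in the control and fell. It had 10053, 9529 and 10461 counts against 7443, 7787 and 6955, so the groups are far apart relative to their spread, and the change was -0.40 ± 0.03 (SE; edgeR adjusted p 2.99e-05). In the nuclear basket 0 of 2 members passed in edgeR (1 had an unadjusted p under 0.05, and DESeq2 called 0): NUP153 was at -0.005 ± 0.08 (SE) with 1003 to 1245 counts over the 6 libraries, and NUP50 at 0.38 ± 0.16 (SE; adjusted p 0.206). NUP210L and NUP62CL are low, with 22 to 128 and 20 to 38 counts, and did not pass; with the added number modelled, NUP62CL was at 0.61 (0.01 to 1.29).

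**Figure D3:**
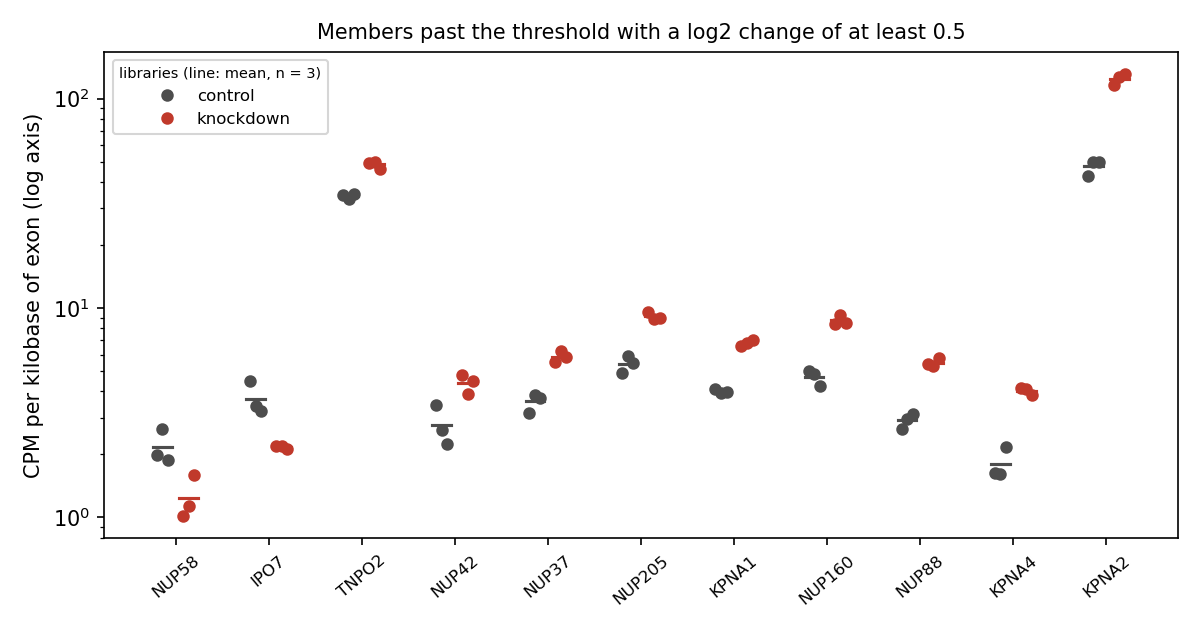
Level of the 11 members past the threshold with a log2 change of at least 0.5, as CPM per kilobase of exon on a log axis; each point is 1 library and each line the mean of 3. The members were picked by their call and size of change, so a gap between the points of the groups largely follows from that choice. KPNA2 goes from 47.5 to 124.7.

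Read against all well-measured genes, the receptors' calls were weighted to one side and the nucleoporins' were not. Among all 5038 well-measured genes, 32.5% were called higher and 35.5% lower. Of the 11 nucleoporins at that depth, 4 rose and 4 fell (36.4% each), which is near those shares, with a median of -0.005. Of the 14 receptors, 10 rose (71.4%) and none fell, with a median of 0.34 against -0.02 over all genes at that depth. The 4 that did not pass were KPNB1, XPO1, IPO5 and XPO6. Depth here is a mean over both groups, so the change itself decides on which side some members lie. IPO7, which fell, averaged 538.0 counts in the control and 307.7 in the knockdown and was left out. KPNA4, which rose, averaged 342.3 and 744.0 and was kept. Over all 21 receptors tested, 11 rose and 1 fell. In edgeR at an unadjusted p under 0.05, and in DESeq2, there were likewise 0 lower calls among the importin alphas, exportins, inner ring and cytoplasmic face and 0 higher calls in the central channel. Members are not replicates, so no test was made of the difference between the classes.

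The summed level of each class weights members by their abundance. The 23 nucleoporins together held 1837, 1867 and 1857 CPM in the control against 1847, 1853 and 1806, and these ranges overlap. With library size alone as scaling, which moves the median of all genes by 0.07 on the log2 scale, the sums were 1792, 1833 and 1796 against 1918, 1875 and 1855 and no longer overlap; the split of nucleoporin calls under that scaling was 9 higher and 4 lower. Without NUP210 the nucleoporin sums were 1345, 1373 and 1346 CPM against 1469, 1466 and 1437, so the flat total contains a lower NUP210 and a higher rest. NUP210 made up 26.9% ± 0.512 (SD, n = 3) of the class in the control and 20.6% ± 0.266 (SD, n = 3) in the knockdown.

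The 23 receptors together held 1576, 1656 and 1647 CPM in the control against 2144, 2173 and 2125. The groups stay apart without KPNA2, at 1443, 1499 and 1491 against 1781, 1775 and 1711 CPM. KPNA2 supplied 9.15% ± 0.591 (SD, n = 3) of receptor CPM in the control and 18.2% ± 1.27 (SD, n = 3) in the knockdown. Summed per length, the classes were close in the control, at 245.1 ± 1.88 CPM per kilobase for nucleoporins and 246.9 ± 9.21 for receptors (SD, n = 3). In the knockdown they stood at 243.3 ± 3.33 and 361.4 ± 5.10 CPM per kilobase (SD, n = 3).

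**Figure D4:**
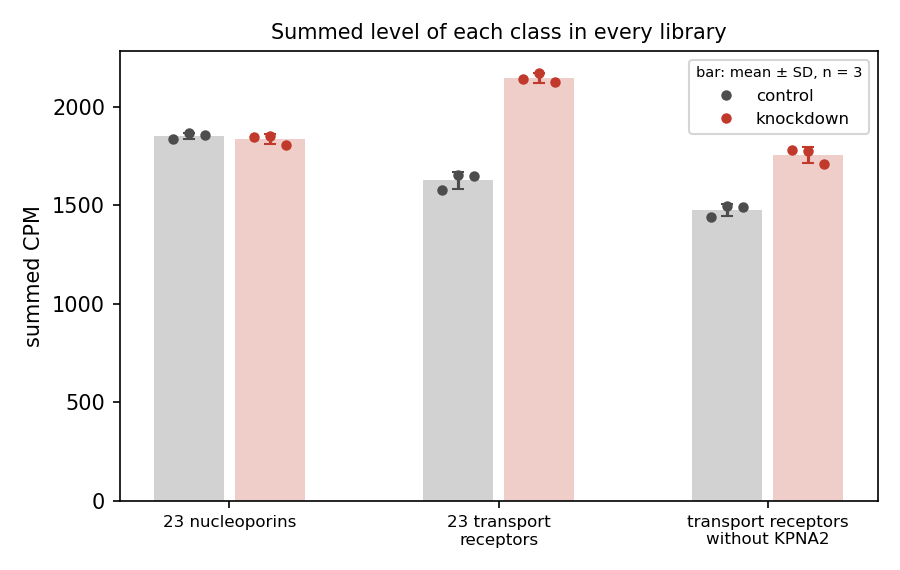
Summed CPM of the 23 nucleoporins, the 23 transport receptors and the receptors without KPNA2; points are libraries and bars the mean with its SD (n = 3). Nucleoporin points of the groups overlap between 1806 and 1867, while receptor points lie at 1576 to 1656 in the control and 2125 to 2173 in the knockdown.

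The order of levels per length changed at the top. In the control, NUP210 stood first at 61.0 ± 1.20 CPM per kilobase of exon (SD, n = 3), followed by NUP62 at 50.5 ± 1.43 and KPNA2 at 47.5 ± 4.28. NUP62 and KPNA2 overlap over their libraries, and so do the next pair, XPO6 at 35.8 ± 1.15 and TNPO2 at 34.3 ± 0.824. In the knockdown, KPNA2 was first at 124.7 ± 8.23, and TNPO2 (48.6 ± 2.11), NUP62 (46.4 ± 0.571) and NUP210 (46.2 ± 1.12) followed, each overlapping its neighbour. The order depends on the length used: with the longest transcript in place of all exon bases, the control levels were 84.8 for NUP62, 69.4 for NUP210 and 60.7 for KPNA2. Classical import pairs an adaptor with KPNB1, whose level was 20.3 ± 0.604 CPM per kilobase in the control and 19.3 ± 0.557 in the knockdown (SD, n = 3).

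Base composition moved with the fold changes across the table, and some member calls shifted in a fit that removed the trend with GC content and transcript length together; neither was removed alone. Over 5031 well-measured genes the rank correlation of log2 fold change with GC content was -0.39, a description across genes that share the same libraries; over the 25 members it was -0.35, over the 11 nucleoporins -0.37 and over the 14 receptors -0.05. Once the trend of each library with GC and length had been taken out, 40.1% of those genes were called higher and 36.5% lower. The nucleoporins then had 6 higher and 4 lower of 11, and the receptors 10 higher and 2 lower of 14. KPNA2 stood at 1.17, KPNA4 at 0.89, NUP160 at 0.68, NUP205 at 0.59 and KPNA1 at 0.49, each smaller than before and still called.

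The GC-rich receptors went the other way: TNPO2 stood at 0.64 and IPO13 at 0.65, both larger than before. NUP210 (58.3% GC) was at -0.20 and NUP43 (41.8% GC) at -0.61, both still called lower. NUP62 (58.4% GC) turned from -0.12 to 0.08 and was called higher (edgeR adjusted p 0.0245). IPO5 turned to -0.14 and was called lower (adjusted p 0.00797), as were KPNB1 at -0.22 (adjusted p 2.72e-05) and NUP153 at -0.17 (adjusted p 0.0435), and NUP214 was called higher at 0.15 (adjusted p 0.000275). XPO1 turned to -0.14 and XPO6 to 0.01, neither called. Whether the trend is technical was not tested.

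**Figure D5:**
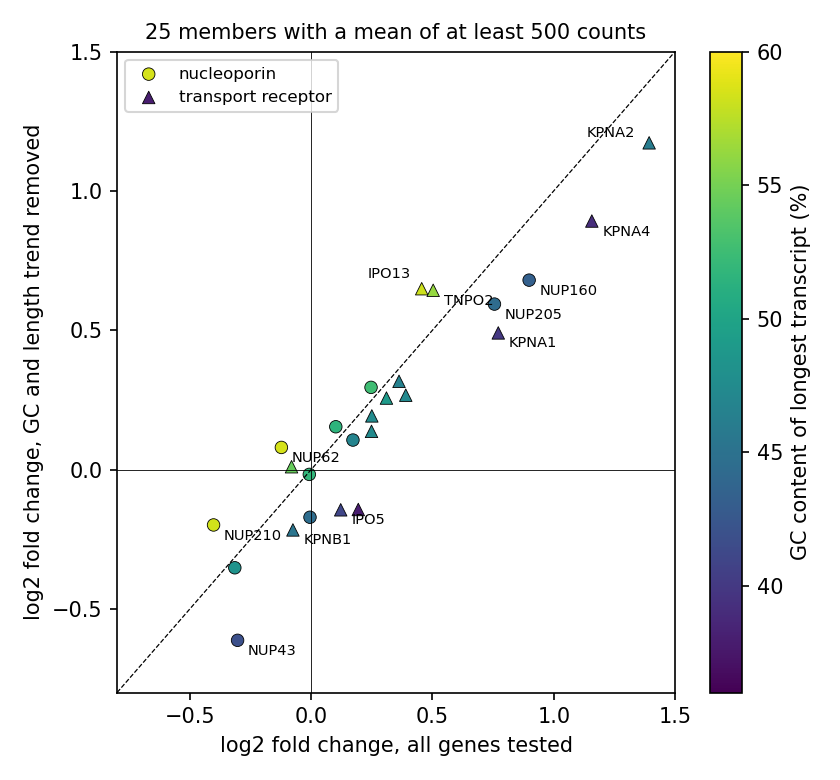
Log2 fold change of the 25 well-measured members (500 counts or more on average), before (horizontal axis) and after (vertical axis) the trend with GC content and length was removed, coloured by GC content of the longest transcript; the dashed line marks equal values. KPNA2, KPNA4 and KPNA1 lie below the line, IPO13 and TNPO2 above it, and NUP62 crosses from below 0 to above 0.

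All 5 promoter motifs searched, CCAAT and TTTGAA included, were chosen after the values were seen. CCGGAAGT, the letters of an ETS site, was in 4 of 22 nucleoporins (NUP160 higher, NUP58 lower, NUP35 and NUP54 not past) and 3 of 18 receptors, against 4.95% of all genes with a window. CGCATGCG, the letters of an NRF1 site, was in 3 nucleoporins (NUP62 lower, NUP107 and NUP50 not past) and 1 receptor, against 2.46% of all genes with a window. The letters AAGATGGC, the core of the YY1 motif, were in the RefSeq window of 4 of 22 nucleoporins, and those 4 were NUP160, NUP188, NUP205 and NUP88, each of them called higher. They were also in 1 of 18 receptors, XPO6, which was not called. The sites of the 4 nucleoporins are shown with 8 bases on each side and the motif in capitals, on the strand of the gene (GRCh38.p14).
NUP160, minus strand of chr11:47848306-47848329: acggcgggAAGATGGCggcggcgg
NUP188, plus strand of chr9:128947709-128947732: ggcgcgcgAAGATGGCggcggccg
NUP205, plus strand of chr7:135557934-135557957: gcgcctctAAGATGGCgacgcctt
NUP88, minus strand of chr17:5419638-5419661: gttgggccAAGATGGCggccgccg
All 4 lie just downstream of the start, at +10 to +30, and in NUP188, NUP205 and NUP88 the ATG inside the motif is an annotated start codon of GENCODE release 29. NUP188 holds the letters once more, on the other strand at -106. The motif is in 2.89% of all windows and in 3.52% of all genes with a window. Genes that hold it were called higher about as often as others: 34.8% of 345 such well-measured genes, against 33.2% of all 4138 with a window.

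Lists of pore and transport genes outside the symbol rule were counted in the same way. Of 12 further pore genes, 4 rose and 1 fell; of the 8 that were well measured, the same counts make 50.0% and 12.5%, beside 32.5% and 35.5% of all well-measured genes. POM121C (0.41 ± 0.06, SE) and POM121 (0.38 ± 0.04, SE), membrane nucleoporins that are near-identical copies and so uncertain, were the largest; RAE1 (0.19) rose, and AAAS (-0.20) fell. Of 7 other transport receptors, none passed edgeR's adjusted threshold in either direction, 0 had an unadjusted p under 0.05 and 0 were called by DESeq2. Only 2 of them were well measured and 5 were low, so the absence of calls rests on few genes. In the Ran cycle 2 of 7 rose and 1 fell: RCC1, the chromatin-bound exchange factor that charges RAN with GTP, fell by 0.64 on the log2 scale (SE 0.04), and RANBP1, which helps release RAN from receptors, rose by 0.40 ± 0.04 (SE). RAN itself was called higher at 0.12, and stood at -0.19 with the GC and length trend removed.

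In the next 3 lists the background over all well-measured genes was again 32.5% higher and 35.5% lower. Among 20 genes of messenger RNA export, 5 rose and 3 fell, and of the 10 well measured 30.0% rose and 30.0% fell. The largest among the well measured were in the THO complex subunits THOC6 (-1.01 ± 0.09, SE) and THOC5 (-0.41 ± 0.04, SE), in ENY2 (0.94 ± 0.09, SE), a subunit of the TREX-2 export complex, and in CHTOP (-0.35 ± 0.06, SE). Of 16 nuclear envelope genes 4 rose and 3 fell (3 and 3 of the 12 well measured), and the 3 were emerin (EMD, -0.75 ± 0.04, SE) and the inner membrane proteins SUN2 (-0.65 ± 0.03, SE) and SUN1 (-0.61 ± 0.07, SE), which link the nucleus to the cytoskeleton. Among the well measured, TOR1AIP2 rose most, at 0.41 ± 0.07 (SE). Of 8 SUMO genes 2 rose and 2 fell (33.3% each of the 6 well measured), led by UBA2 (-1.38 ± 0.08, SE), a subunit of the SUMO-activating enzyme, whose partner SAE1 rose by 0.35 ± 0.03 (SE).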

How the data were processed

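RNA-seq of poly(A)-selected RNA was compared in 6 MEG-01 libraries, grouped by the sample titles. The authors deposited 1 table of raw whole-number counts per gene; the submitters' processing notes list GRCh38 as build and, with no roles, STAR, HTSeq, fastp, FastQC, DESeq2 and R 4.3.3. Not given in the sources used here are annotation release, counting mode and strand setting. The labels call the replicates biological, and separate transductions are not stated, so p-values reflect only how these libraries vary, which may be technical.

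The counts were tested in edgeR 4.0.16 in R 4.3.3 (TMM, filterByExpr at a minimum count of 10, robust quasi-likelihood F-test), with Benjamini-Hochberg adjustment over all 28303 genes tested and a threshold of 0.05. Each SE of a log2 fold change was calculated back from that test, as the absolute change divided by the square root of the F statistic. CPM used TMM-scaled library sizes, and levels per length used the union of exons in GENCODE 29. Symbols were found for 99.92% of IDs. Of the 46 members, 44 passed the filter. Members and gene lists were chosen with earlier results of these data known. Members past the threshold with an absolute log2 fold change of at least 0.5, and the 3 with the highest level per length, are given in every library; of each outside list up to 4 genes with the largest change at a mean of at least 500 counts are named. For low members each value was also modelled as a negative binomial read count (dispersion 0.00293) plus 0, 1, 2, 10 or 100, with 95% profile intervals. That 1 dispersion came from well-measured genes, and the intervals were not adjusted over genes, so they may be too narrow. The GC and length trend was removed by loess. Other fits used RLE or library-size scaling, no filter, a mean of at least 500 counts, DESeq2 1.42.0, limma-voom (limma 3.58.1), a replicate block, and each library left out. Scripts were tested on simulated data. Promoters are from RefSeq (GRCh38.p14), with 40 of 46 members matched; motifs, class sums and importin alpha shares were chosen after the values were seen.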

Additional observations from a re-analysis of the deposited data

How the results depend on the processing

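The nucleoporin calls numbered 12, with 9 to 14 in the other fits on all libraries and 8 to 10 with each library left out. The receptor calls numbered 12, with 10 to 12 and 9 to 11. These ranges mix unlike numbers of genes tested. The main fit tested 23 nucleoporins and 21 receptors, and the fits on well-measured genes 11 and 14. Those fits called 9 nucleoporins and 11 receptors, or 10 and 12 with the GC and length trend removed. Over all genes 4683 were called, with 3808 to 4064 when a library was left out and 9858 of 39023 genes tested with DESeq2. With no filter, edgeR tested 61849 genes and called 4295. With the replicate number as a block the counts were 4182 over all genes, 10 nucleoporins (7 higher, 3 lower) and 10 receptors (9 higher, 1 lower); NUP58, NUP62, KPNA6 and KPNA3 lost their calls. No pairing of the replicates is stated. Same-numbered libraries correlated at 0.0998, -0.0124 and -0.0801 in their deviations from the group means. With 3 libraries per group these values cannot tell whether such libraries were handled together.

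Directions turned in members close to 0 or low in reads. Among them, the well-measured NUP62 and IPO5 had calls of opposite sign between fits. NUP153 was at 0.068 with library size alone, 0.0117 among well-measured genes (500 counts or more on average) and 0.0009 with limma-voom; NUP85 was at 0.0656 and 0.009 under the first pair of these. NUP210L was at -0.28 with the added number modelled. With the trend in GC content and length removed, NUP62 was at 0.0795, IPO5 at -0.14, XPO1 at -0.14 and XPO6 at 0.0103. NUP62 was then called higher and IPO5 lower. In the edgeR fit on well-measured genes without that step, IPO5 was called higher (0.14, adjusted p 0.0286). With each library left out, NUP35 ranged from -0.12 to 0.33, NUP210L from -0.41 to 1.24, NUP153 from -0.0638 to 0.0477, NUP85 from -0.0262 to 0.0088 and KPNA5 from -0.72 to 1.42, none called. The cause was not tested. In limma-voom NUP42 (adjusted p 0.0574), NUP58 (0.0556) and KPNA3 (0.0871) missed the threshold. Levels per length moved for most members with the longest transcript. Depth and the added number limit the 21 members with a mean under 500 counts.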
